A study of Mus musculus with 4 samples.

Results

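Kinesins are motor proteins that use ATP to walk along microtubules, or to take microtubules apart at their ends, and 47 kinesin genes were followed among 21887 protein-coding mouse genes. The members were the protein-coding genes of the RefSeq table whose symbol starts with Kif and a digit or c (42 genes), together with Kifap3, the subunit that links kinesin-II motors to cargo, and the kinesin light chain genes Klc1, Klc2, Klc3 and Klc4. Open chromatin was mapped with ATAC-seq, an assay that marks exposed DNA by cutting it with the Tn5 transposase, in nuclei labelled as pachytene spermatocytes from testis. The libraries came from a Znhit1 knockout (Znhit1_KO) and from controls (CTRL), with 2 libraries per genotype, all with the tag P35. ZNHIT1 is a subunit of the SRCAP complex, which exchanges histone H2A for its variant H2A.Z, and the study asked how it affects accessibility. The labels name no strain, allele or Cre driver and do not say what genotype the controls had. The values analysed were 2 peak lists, 1 per genotype, each giving the position of accessible sites with no height or score, so no difference between the genotypes has a replicate check and none carries a p-value. The Znhit1 KO list held 21004 separate peaks (median width 352 bp) and the CTRL list 15376 (median width 427 bp), and the reads behind each list are unknown beyond the labels' statement of more than 30000000 reads for each library. A longer list can hold more genes that have a peak in it alone.

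Some kinesins build and move the spindle and finish cytokinesis, and others carry vesicles, mitochondria and receptors along axons or build cilia. Spermatocytes at pachytene, the stage at which homologous chromosomes are fully paired, have yet to build the spindles of the meiotic divisions, and the later spermatids use kinesins to shape the head and the flagellum. The members were grouped by known role into 15 division kinesins, 22 transport and neuronal kinesins with their light chains and adaptor, 6 kinesins of the cilium and flagellum, and 4 others. The labelled cell type was set against marker genes. All 12 pachytene markers, among them Sycp1, Sycp3 and Hormad1, had a peak in both lists within 1 kb of an annotated gene end. Over all protein-coding genes the share with such a peak was 38.4% in the Znhit1 KO list, 33.2% in the CTRL list and 28.6% in both. Of 8 spermatogonial markers 1 (Etv5) had a peak in the Znhit1 KO list and 3 (Etv5, Id4 and Dmrt1) in the CTRL list. The CTRL share of 37.5% was near that of all genes, so these markers were not depleted there. Of 8 spermatid markers 1 (Tssk6) had a peak in both lists, with a peak also at an end of Ndufa13. Of 8 Sertoli cell markers and 10 markers of other somatic cells, 1 each had a peak in the Znhit1 KO list and none in the CTRL list. These were Amhr2 (416 bp) among the Sertoli markers and Acta2 (313 bp) among the others. All the remaining Sertoli and other somatic markers, Sox9, Wt1 and Amh among them, were without a peak in either list.

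Kinesin genes had an accessible gene end more often than protein-coding genes at large, and the division kinesins most often. A gene-end peak was an interval within 1 kb of either annotated end of the gene. Of the 47 genes, 26 had one in the Znhit1 KO list, against 21 in the CTRL list, where the background over all 21887 protein-coding genes was 38.4% in the Znhit1 KO list and 33.2% in the CTRL list. A peak stood in both lists at 19 genes (40.4%, background 28.6%), in the Znhit1 KO list alone at 7 (14.9%, background 9.81%), in the CTRL list alone at 2 (4.26%, background 4.66%) and in neither at 19 (40.4%, background 57.0%). With a peak in either list there were 28 genes (59.6%, Wilson 95% interval 45.3 to 72.4 for counting error only), where the background was 43.0%. The Wilson interval for the Znhit1 KO list (41.2 to 68.6) also lay above its background. Those for the CTRL list (31.4 to 58.8), both lists (27.6 to 54.7) and the Znhit1 KO list alone (7.41 to 27.7) included their backgrounds. Among intervals listed on at least 2 lines the genes in 1 list alone were equal in number, where 12 genes were in both lists (background 15.9%), 6 in the Znhit1 KO list alone (background 7.71%) and 6 in the CTRL list alone (background 6.56%). Genes are not replicates of a genotype, so these shares describe the lists and are not tests.

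By role, 12 of the 15 division kinesins had a peak in at least 1 list (80.0%, 54.8 to 93.0), 12 of the 22 transport and neuronal kinesins (54.5%, 34.7 to 73.1), 3 of the 6 cilium and flagellum kinesins, and 1 of the 4 others. The background for a peak in at least 1 list was 43.0%. A peak in both lists was present at 10 division kinesins (66.7%) and 8 transport and neuronal kinesins (36.4%), where the background was 28.6%. In the Znhit1 KO list alone stood 1 division kinesin (6.67%) and 4 transport and neuronal kinesins (18.2%), where the background was 9.81%. The rest of that class were 1 cilium and flagellum kinesin and 1 other kinesin. The 2 genes in the CTRL list alone (background 4.66%) were a division kinesin and a cilium kinesin. For a peak in at least 1 list, the lead of the division kinesins was not kept at the RefSeq start of the gene. There peaks had to touch a start window, from 250 bases before the start to 50 after it. By that rule 19 of 37 members had a peak in the Znhit1 KO list (background 36.9% of 17492 genes) and 14 in the CTRL list (background 31.8%). It stood in both lists at 13 (background 28.3%), in the Znhit1 KO list alone at 6 (background 8.67%), in the CTRL list alone at 1 (background 3.51%) and in neither at 17 (background 59.6%). Of these, 8 of 14 division kinesins and 9 of 15 transport and neuronal kinesins had a peak in at least 1 list, where the background was 40.4%. A further 10 members had no start window to compare.

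**Figure D1:**
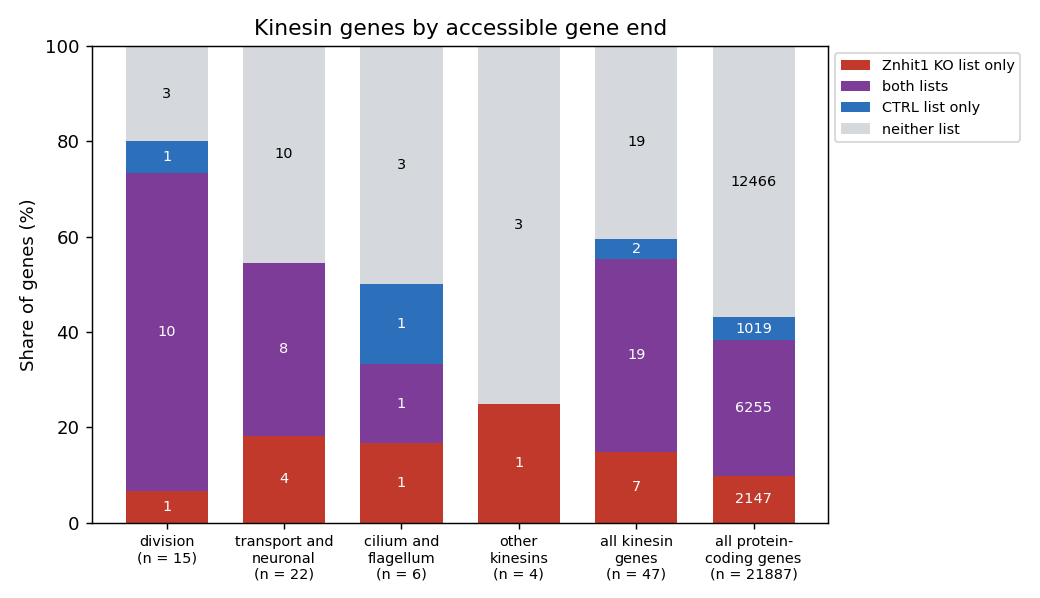
Share of genes (%, y axis) with a gene-end peak in the Znhit1 KO list only, in both lists, in the CTRL list only and in neither, for each role of kinesin, all 47 kinesin genes and all 21887 protein-coding genes; the numbers in the bars are genes. The grey part is smallest for the division kinesins, where 3 of 15 genes had no peak.

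Among the division kinesins that act in cytokinesis, Kif23, Kif20a and Kif14 were accessible in both lists and Kif20b in the Znhit1 KO list alone. Kif23, which encodes the motor of the centralspindlin complex, had a peak of 535 bp in the Znhit1 KO list (chromosome 9, 61946399 to 61946933, mm10) and of 619 bp in the CTRL list (61946445 to 61947063), both across its start. Kif20a, whose product brings the chromosomal passenger complex to the central spindle, had a peak of 972 bp in the Znhit1 KO list and 655 bp in the CTRL list on chromosome 18. The Kif20a peaks also lay at an end of Brd8. Kif14, a cytokinesis motor gene, had peaks of 558 bp in the Znhit1 KO list and 577 bp in the CTRL list at the annotated end of the gene. These peaks ended 1184 bp upstream of its RefSeq start in the Znhit1 KO list and 1138 bp upstream in the CTRL list. Kif20b, which acts late in cytokinesis, had a peak of 726 bp in the Znhit1 KO list alone (chromosome 19, 34922003 to 34922728), running from -355 to 370 bases around its start and listed on 3 lines. The nearest CTRL peak to that end of Kif20b was 119950 bp away.

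The kinesins that move chromosomes or shape the spindle gave a mixed picture. Kif18a, which dampens chromosome movements at the metaphase plate, had a peak of 823 bp in the Znhit1 KO list that held the whole CTRL peak of 388 bp, both also at an end of Mettl15. Kif18b, a motor that works at growing microtubule ends, showed the opposite order of widths, 524 bp in the Znhit1 KO list and 858 bp in the CTRL list. Kif15, which can keep spindle poles apart, had peaks of 968 bp in the Znhit1 KO list and 903 bp in the CTRL list, the CTRL peak lying wholly inside the other and both also at an end of 1110059G10Rik. Kif11, the main motor that pushes spindle poles apart, had no peak in either list, and the nearest lay 12176 bp from an end of the gene in the Znhit1 KO list and 128561 bp in the CTRL list. Kif4, a chromosome-bound kinesin that also works at the central spindle, is on the X chromosome, which is silenced at pachytene, and had no peak in either list. The part of that silencing in the result was not tested.

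Kif22, another chromosome-bound kinesin, counted as present in both lists through its 3′ end. There a peak of 1003 bp in the Znhit1 KO list and 635 bp in the CTRL list lay at an end of Maz as well. On its 5′ side Kif22 had a peak of 419 bp in the Znhit1 KO list, starting 255 bases after the gene's start, and no CTRL peak nearer to that start than 14557 bp. Of the kinesins that take microtubules apart, Kif2a had its widest peak of 945 bp in the Znhit1 KO list and of 523 bp in the CTRL list. Kif2c, known as MCAK, had a peak in the CTRL list alone (565 bp; chromosome 4, 117182237 to 117182801, listed on 2 lines). It lay at the outer annotated end of Kif2c, 3465 bp upstream of the RefSeq start, and the nearest Znhit1 KO peak to that gene end was 12065 bp away. Kif2b had no peak within 845932 bp of either end in the Znhit1 KO list or within 936572 bp in the CTRL list.

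The minus-end motor genes Kifc1 and Kifc5b are close copies of each other on chromosome 17, and reads could have been split between them. Kifc1 had peaks of 615 bp and 185 bp in the Znhit1 KO list inside the stretch where the CTRL list had a single peak of 1033 bp, apart from the outer edge of the wider one. Kifc5b had peaks at its start of 1076 bp in the Znhit1 KO list and 1045 bp in the CTRL list. The start windows of the pair aligned over 249 identical bases with 13 mismatches (95.04% identity where bases were aligned). Values of this pair are therefore uncertain for each gene on its own.

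**Figure D2:**
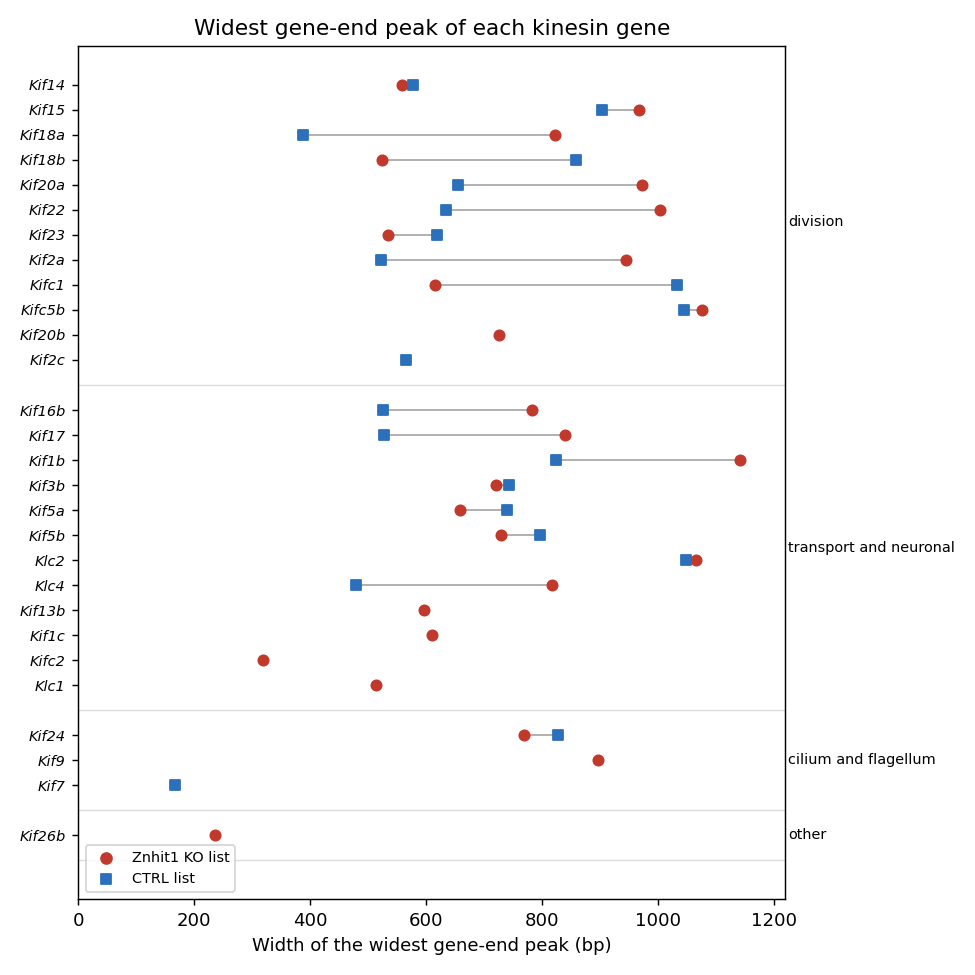
Width in bp (x axis) of the widest gene-end peak of each kinesin gene with a peak, by role, in the Znhit1 KO list (circles) and the CTRL list (squares); a grey line joins the values of a gene present in both lists. Kif18a has the largest excess of the Znhit1 KO list, and Kifc1 and Kif18b the largest of the CTRL list.

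Most promoters of the division kinesins held a short sequence that was not found in those of the transport kinesins. The CHR element (TTTGAA, searched on both strands) is bound by the MuvB complexes that time cell cycle genes for division. It was found in the start window of 11 of 14 division kinesins and of 0 of 15 transport and neuronal kinesins, against 16.5% of all 17492 windows of the same length. At 9 of the 14 the match began within 30 bases of the RefSeq start, a distance chosen after the matches were seen, against 2.56% of all windows. The matches began at 2 in Kif23, 3 in Kif18b, 1 in Kifc1, 29 in Kifc5b, 7 and 13 in Kif20b, -17 in Kif22, -19 in Kif11 and Kif15, and 19 in Kif4, counted from 0 at the first base of the gene and upstream as negative. Kif18a, Kif2a and Kif2b had no match in this window. Kifc1 and Kifc5b, close copies with the same match, are both counted here and are not separate cases. Outside the division kinesins, the element was in the windows of Kif26b (at -9) and of the cilium gene Kif27 (at -191, -89 and -73), both without a peak there. The matched letters were covered by a peak of both lists at 5 of the 11 genes, by a Znhit1 KO peak alone at Kif20b, and by no peak at 5, Kif11 and Kif4 among them. The roles of these genes and the motifs were chosen with textbook knowledge of cell cycle genes, and a match is a description of letters.

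The CCAAT box, the NF-Y binding sequence that often stands beside a CHR element, was searched as CCAAT on both strands. It was present in 9 of 14 division kinesin windows and 6 of 15 transport and neuronal windows, against 39.2% of all windows. The windows below show 6 division kinesins, as RefSeq sequence of GRCm38.p6 read 5′ to 3′ along each gene, with CHR and CCAAT letters in capitals. Kif23, Kif18b, Kifc1 and Kifc5b had a peak over the window in both lists, Kif20b in the Znhit1 KO list alone and Kif11 in neither. They are shown because the element stands near the start in windows with a peak in both lists, in the Znhit1 KO list alone and in neither. The windows are chr9:61946750-61947049 (minus strand), chr11:102925075-102925374 (minus), chr17:33890584-33890883 (minus), chr17:26916841-26917140 (plus), chr19:34922108-34922407 (plus) and chr19:37376132-37376431 (plus), in the order printed.
Kif23: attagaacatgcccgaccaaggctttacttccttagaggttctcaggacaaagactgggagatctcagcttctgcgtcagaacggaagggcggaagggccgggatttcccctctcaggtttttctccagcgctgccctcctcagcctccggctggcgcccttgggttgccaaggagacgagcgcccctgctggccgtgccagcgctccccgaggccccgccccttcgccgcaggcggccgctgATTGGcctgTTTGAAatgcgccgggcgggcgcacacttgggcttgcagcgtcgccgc
Kif18b: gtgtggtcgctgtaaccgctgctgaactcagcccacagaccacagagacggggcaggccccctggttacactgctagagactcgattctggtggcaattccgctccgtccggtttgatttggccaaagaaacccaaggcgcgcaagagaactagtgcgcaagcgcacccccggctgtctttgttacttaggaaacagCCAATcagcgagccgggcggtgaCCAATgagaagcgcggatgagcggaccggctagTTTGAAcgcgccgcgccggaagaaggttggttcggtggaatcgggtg
Kifc1: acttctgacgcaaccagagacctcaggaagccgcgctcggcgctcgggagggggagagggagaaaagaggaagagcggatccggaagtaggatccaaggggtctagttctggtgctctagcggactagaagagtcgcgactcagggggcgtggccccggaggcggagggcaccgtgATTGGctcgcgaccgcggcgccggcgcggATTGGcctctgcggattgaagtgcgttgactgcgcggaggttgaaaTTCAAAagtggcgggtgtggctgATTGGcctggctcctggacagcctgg
Kifc5b: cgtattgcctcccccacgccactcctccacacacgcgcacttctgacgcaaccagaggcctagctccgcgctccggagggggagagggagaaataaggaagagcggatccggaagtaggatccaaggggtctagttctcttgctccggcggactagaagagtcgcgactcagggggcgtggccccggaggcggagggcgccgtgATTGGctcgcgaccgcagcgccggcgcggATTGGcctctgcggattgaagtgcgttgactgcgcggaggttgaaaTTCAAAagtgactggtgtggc
Kif20b: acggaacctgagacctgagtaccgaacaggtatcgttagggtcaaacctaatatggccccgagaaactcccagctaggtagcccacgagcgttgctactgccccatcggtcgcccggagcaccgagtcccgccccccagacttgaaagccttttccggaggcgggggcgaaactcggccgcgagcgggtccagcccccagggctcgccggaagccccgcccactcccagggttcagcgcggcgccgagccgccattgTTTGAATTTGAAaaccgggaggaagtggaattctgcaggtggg
Kif11: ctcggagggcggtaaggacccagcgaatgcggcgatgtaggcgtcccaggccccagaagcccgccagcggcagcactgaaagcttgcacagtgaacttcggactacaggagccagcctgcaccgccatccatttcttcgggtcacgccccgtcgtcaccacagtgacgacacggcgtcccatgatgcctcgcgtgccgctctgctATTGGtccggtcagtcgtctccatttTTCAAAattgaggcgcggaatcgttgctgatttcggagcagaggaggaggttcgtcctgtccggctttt

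In Kif23 the CCAAT box, read here as its reverse complement, began at -7 and the CHR element at 2. In Kif20b 2 CHR matches followed each other directly and no CCAAT box was in the window. Kifc1 and Kifc5b carried the same pair of CCAAT boxes and the same CHR match in the shared part of their windows. Kifc1 had a further CCAAT box at 24. The Kifc5b window ended before the matching stretch, so this box is not shown to differ between the copies.

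**Figure D3:**
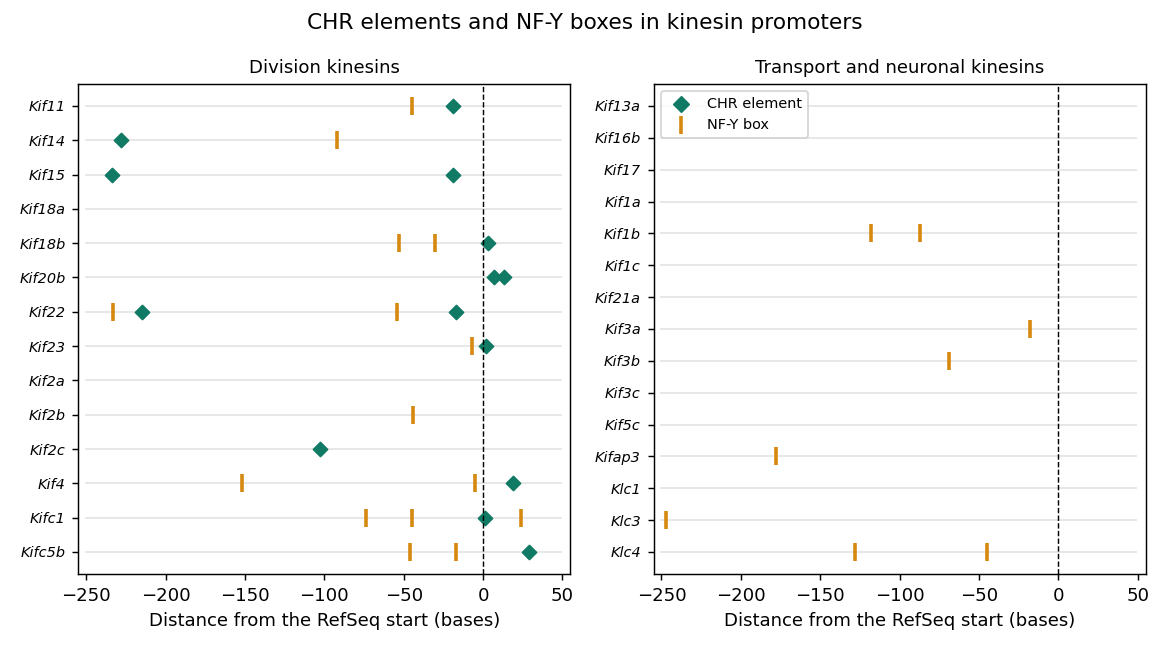
Position in bases from the RefSeq start (x axis) of CHR elements (diamonds) and CCAAT boxes, named NF-Y boxes in the plot (bars), in the start windows of 14 division kinesins and 15 transport and neuronal kinesins. CHR elements appear in 11 windows on the left, most of them beside the start, and in none on the right.

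Of the kinesin-I genes, which encode the main carriers of vesicles and mitochondria, the ubiquitous heavy chain gene Kif5b and the neuronal Kif5a were accessible in both lists. Kif5b had a peak of 729 bp in the Znhit1 KO list and 796 bp in the CTRL list. Kif5a had a peak of 659 bp in the Znhit1 KO list and 739 bp in the CTRL list that also lay at an end of Dctn2, which encodes a subunit of dynactin, the partner of the opposite motor dynein. The neuronal Kif5c had no gene-end peak, and a CTRL peak of 391 bp began 1379 bases inside the gene. Among the light chains, Klc2 had its widest peak of 1066 bp in the Znhit1 KO list and 1049 bp in the CTRL list. Klc4 had 1 peak of 817 bp in the Znhit1 KO list where the CTRL list had a pair of 480 and 423 bp, all at an end of Mrpl2 too. Klc1 had a peak of 513 bp across its start in the Znhit1 KO list alone (chromosome 12, 111758590 to 111759102), listed once. Klc3, whose product binds the sperm tail in rodents, had none in either list.

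The kinesin-II motor of KIF3A, KIF3B and the adaptor KAP3 carries cargo along axons and cilia. At their RefSeq starts Kif3a and Kifap3 differed between the lists, and Kif3b and Kif3c did not. Kif3b had peaks of 720 bp in the Znhit1 KO list and 743 bp in the CTRL list across its start. Kif3a and Kifap3 counted as having no gene-end peak, because their RefSeq starts lie 1668 and 17445 bp inside the outermost annotated end. At the start of Kif3a the Znhit1 KO list held a peak of 777 bp, listed on 2 lines (chromosome 11, 53566904 to 53567680), and the nearest CTRL peak was 66304 bp away. At the start of Kifap3 it held a peak of 295 bp (chromosome 1, 163779415 to 163779709) and a second of 389 bp just inside the gene, each listed once, and the nearest CTRL peak was 150084 bp away. The neuronal Kif3c had a peak at neither end in either list. Kif17, which in mouse testis is known to move the coactivator ACT in spermatids, had peaks of 839 bp in the Znhit1 KO list and 528 bp in the CTRL list.

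Kinesins that carry vesicles and endosomes had accessible gene ends in both lists, in the Znhit1 KO list alone or in neither. Kif1b, a mitochondria and synaptic vesicle motor gene, had the widest kinesin peak, 1141 bp in the Znhit1 KO list, over a CTRL peak of 824 bp that lay wholly inside it. Kif16b, an endosome motor gene, had peaks of 783 bp in the Znhit1 KO list and 526 bp in the CTRL list. In the Znhit1 KO list alone, Kif1c had a peak of 611 bp (chromosome 11, 70699958 to 70700568), shared with an end of Inca1. Kif13b, also in the Znhit1 KO list alone, had a peak of 596 bp (chromosome 14, 64652308 to 64652903). Kifc2, a neuronal minus-end motor gene, had a peak of 318 bp in the Znhit1 KO list alone (chromosome 15, 76659674 to 76659991), listed once and shared with an end of Cyhr1. The synaptic vesicle precursor motor gene Kif1a and Kif13a, Kif21a, Kif21b and Kifc3 had no gene-end peak in either list.

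The cilium and flagellum kinesins split over all 4 classes. Kif24, a regulator of ciliogenesis at the centriole, had peaks of 769 bp in the Znhit1 KO list and 828 bp in the CTRL list, shared with an end of Nudt2. Kif9, needed for normal sperm motility in mice, had a peak of 896 bp in the Znhit1 KO list alone (chromosome 9, 110476277 to 110477172), listed on 2 lines and shared with an end of Klhl18, and the nearest CTRL peak to that end was 48313 bp away. Kif7, a Hedgehog pathway regulator at the tip of the cilium, had a peak in the CTRL list alone, the narrowest of any kinesin gene end at 167 bp (chromosome 7, 79715779 to 79715945) and listed once. Kif6, Kif19a and Kif27 had none, although the Znhit1 KO list held a peak of 838 bp inside Kif27, 4052 bp from its annotated end. Of the other kinesins, Kif26b had a peak of 236 bp in the Znhit1 KO list alone, beginning 741 bases inside the gene, and Kif12, Kif26a and Kif28 had none. Kif26a had a Znhit1 KO peak of 426 bp that began 177 bases after its RefSeq start, which lies 2234 bp inside the gene.

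The start window of Kif9 (chr9:110476708-110477007, plus strand) is shown because it was the widest peak of a kinesin in 1 list alone, with a part of the X-box, the RFX factor site of cilium genes, in capitals (GTTNCC, both strands). That short pattern stood in 45.4% of all windows.
Kif9: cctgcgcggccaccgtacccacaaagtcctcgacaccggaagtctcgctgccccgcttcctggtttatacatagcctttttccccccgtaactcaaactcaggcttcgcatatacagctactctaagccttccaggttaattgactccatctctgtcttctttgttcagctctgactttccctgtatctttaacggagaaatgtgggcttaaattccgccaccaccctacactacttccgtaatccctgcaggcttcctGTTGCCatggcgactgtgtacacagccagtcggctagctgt

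**Figure D4:**
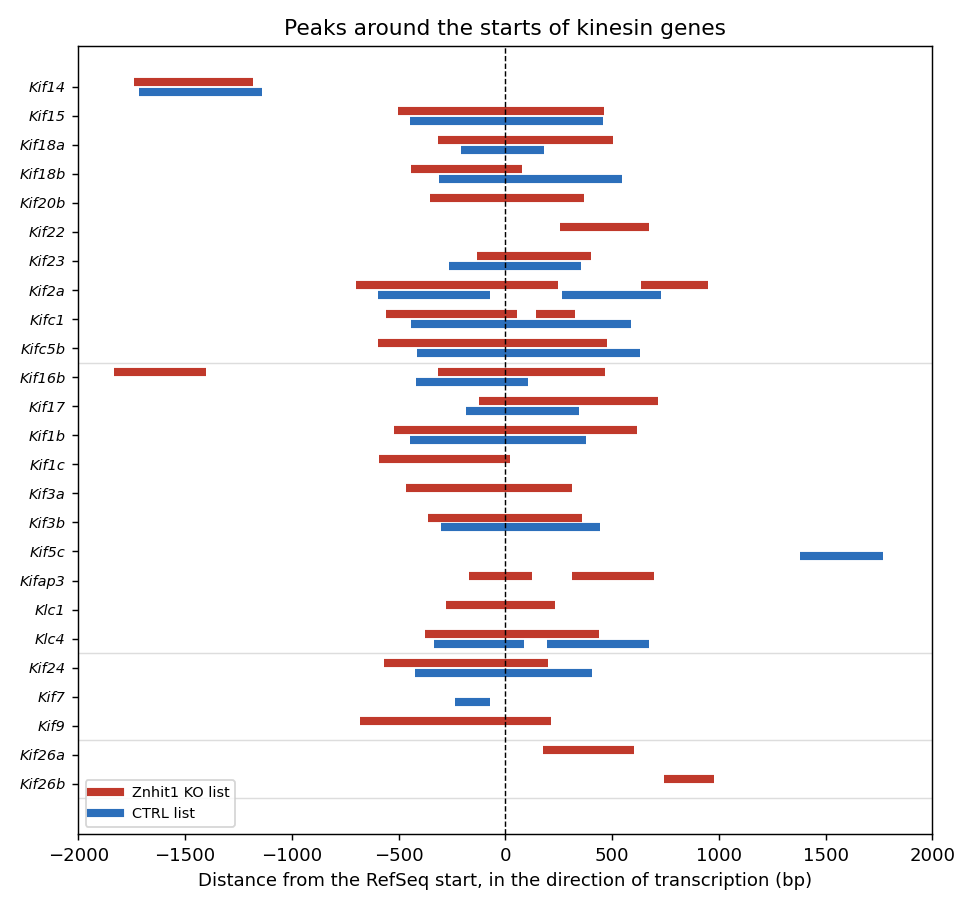
Position of every peak within the plotted range around the RefSeq start (x axis, bp in the direction of transcription, start at 0) at kinesin genes with a start window, in the Znhit1 KO list (upper bars) and the CTRL list (lower bars), in blocks of division, transport and neuronal, cilium and flagellum and other kinesins. Kif20b, Kif1c, Kif3a, Kifap3, Klc1 and Kif9 show a Znhit1 KO bar across the start and no CTRL bar, and Kif7 shows the reverse, with its bar just upstream of the start.

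The genes present in both lists shared at least 1 site between the lists, though not every peak. An overlapping pair of peaks was found at all 19 of these genes, and at 6088 of 6255 genes over the whole table. A pair overlapped by at least 50% of both peaks at 16 of the 19 (84.2%), near the 83.1% over the table. Kif18a, Kif18b and Kifc1 were below that. The Znhit1 KO peaks of 419 bp on the 5′ side of Kif22 and of 478 bp at the 3′ end of Kif2a overlapped no CTRL peak. The median log2 ratio of the widest peak, Znhit1 KO over CTRL, was 0.04 (quartiles -0.12 and 0.62), beside 0.04 over all genes in both lists (quartiles -0.29 and 0.40). The widest peak was wider in the Znhit1 KO list at 11 genes and in the CTRL list at 8. Medians of the widest peak were 817 bp in the Znhit1 KO list and 739 bp in the CTRL list for these kinesin genes, and 758 bp in the Znhit1 KO list and 714 bp in the CTRL list over all genes in both lists.

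Of the 7 kinesin peaks in the Znhit1 KO list alone, those of Kif20b, Kif9, Kif1c and Kif13b were listed on at least 2 lines, and of the 2 in the CTRL list alone, that of Kif2c. The 7 ranged from 236 to 896 bp with a median of 596 bp, beside a median of 421 bp at the 2147 genes with a peak in the Znhit1 KO list alone. A neighbour's end shared at least 1 peak at 12 of the 28 kinesin genes, and every peak at 9. Such a peak may belong to the neighbour. The same shares over all genes with a gene-end peak were not computed, so these counts stand without a background.

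Peaks inside the genes, away from the ends, were counted per 100 kb of gene. Kinesin genes held 42 such peaks in the Znhit1 KO list (1.25 per 100 kb) and 23 in the CTRL list (0.687 per 100 kb), beside 0.727 per 100 kb in the Znhit1 KO list and 0.507 in the CTRL list over all protein-coding genes. Among peaks of at least 300 bp there were 17 in the Znhit1 KO list and 13 in the CTRL list. No density over all protein-coding genes is given for that width, so these counts stand without a background. Transport and neuronal kinesins held 22 in the Znhit1 KO list (1.26 per 100 kb) and 14 in the CTRL list (0.804 per 100 kb), and division kinesins 4 in the Znhit1 KO list (0.690 per 100 kb) and 3 in the CTRL list (0.517 per 100 kb). The 6 cilium and flagellum kinesins held 9 in the Znhit1 KO list (1.70 per 100 kb) and 3 in the CTRL list (0.566 per 100 kb), and the 4 others held 7 in the Znhit1 KO list (1.41 per 100 kb) and 3 in the CTRL list (0.603 per 100 kb). Kif6 held 7 in the Znhit1 KO list and 3 in the CTRL list, and Kif26b held 6 in the Znhit1 KO list and 2 in the CTRL list. At Kif13b and Kifap3 the Znhit1 KO list held 4 each and the CTRL list none. The lists overlapped at 1 site in Kif6 and 1 in Kif26b and at none of the rest. How often such peaks overlap over all protein-coding genes was not computed, so this count cannot be read as a trait of kinesins. The sites at the starts of Kif3a and Kifap3 are among the Znhit1 KO peaks counted here.

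Accessible kinesin promoters were rich in CpG. The ratio of observed to expected CpG in the start window had a median of 0.949 at the 13 kinesin genes with a peak over the window in both lists, 0.822 at the 6 with a Znhit1 KO peak alone, and 0.733 at the 17 with none (0.847, 0.771 and 0.285 over all genes). The kinesin windows without a peak thus held more CpG than such windows at large, Kif13a at 1.10 and Kif4 at 0.967 among them. Of the other motifs, the GC box (GGGCGG) stood in 13 of 15 transport and neuronal windows and 7 of 14 division windows, against 46.3% of all. A MYB pattern (AACNGNC), searched because MYBL1 drives pachytene genes, stood in 9 of 37 kinesin windows (24.3%), against 32.2%. E2F patterns (TTGGCGC or TTCCCGC) stood in 3 division windows and no transport window, against 8.84% of all, a CRE pattern (TGACGT, any base, A) in 4 of 37, against 3.60%, and the rare CHR variant (TTCGAA) in Kif24 alone, against 1.85%. All were searched on both strands.

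Genes of proteins that work with kinesins were also often accessible in both lists, where the background was 28.6% of all genes. Of 14 partners of division kinesins, 12 had a peak at a gene end in each list, for example Aurka, the spindle pole kinase gene (1080 bp in the Znhit1 KO list and 1064 bp in the CTRL list), and Ect2, the cytokinesis exchange factor gene (837 bp in the Znhit1 KO list and 1111 bp in the CTRL list). Racgap1, which encodes the partner of KIF23 in centralspindlin, had a peak of 657 bp in the Znhit1 KO list and 337 bp in the CTRL list. Aurkb had a peak of 359 bp in the CTRL list alone and Plk1 had none. The CHR element stood in 8 of the 11 start windows of these partners, against 16.5% of all windows. Of 13 cargo adaptors and related genes, 7 had a peak in both lists, Rhot2, a mitochondrial transport GTPase gene, in the Znhit1 KO list alone (656 bp) and Plekhm2, a lysosome adaptor gene, in the CTRL list alone (496 bp). Of 21 genes of cytoplasmic dynein and dynactin, 15 had one in both lists, Dynlrb1 (588 bp) and Dync1li2 (458 bp) in the Znhit1 KO list alone and Dynlrb2 (463 bp) in the CTRL list alone. Of the 2 kinesins whose symbols fall outside the Kif names, Stard9 had a peak in both lists (631 bp in the Znhit1 KO list and 918 bp in the CTRL list) and the kinetochore motor gene Cenpe in the Znhit1 KO list alone (283 bp).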

How the data were processed

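ATAC-seq libraries of 4 samples are labelled, and 2 peak lists were analysed here, recorded for the first Znhit1 KO and the first CTRL library. Whether the authors pooled replicates is unknown. The deposited files hold 3 columns, which place each peak on a chromosome and carry no score. The genome build was mm10, and MACS2 2.2.4, Picard 2.20.7, Bowtie2 2.3.4.3 and cutadapt 2.5 were used, per the submitters' processing notes, which give no roles, threshold, Tn5 shift or filters. The labels' protocols give more than 30000000 reads for each library, and the reads behind each list are unknown.

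Repeated lines were counted once (29656 lines to 21004 peaks in Znhit1 KO, 24167 to 15376 in CTRL). Positions are 1-based. Gene ends came from the RefSeq table of GRCm38.p6 (the same primary chromosomes as mm10), and start windows, strand and sequence from RefSeq promoters, matched for 37 of 47 members. Protein sequences were not analysed here. Widths are the authors' intervals. A motif position is its first base on the gene's strand. Python 3.11.15, numpy 2.4.6, pandas 2.3.3, scipy 1.17.1 and matplotlib 3.10.9 were used. No test between genotypes was run. The members, roles, lists and alternatives were chosen with earlier results of these data known. Every member may be named. Partner genes were named where they stood in 1 list alone, and otherwise by width, and Racgap1 and Plk1 were added after their values were seen.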

Additional observations from a re-analysis of the deposited data

How the results depend on the processing

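The counts rested on small numbers, and the class changed at 12 members with the RefSeq start window and at 11 with intervals listed at least 2 times. With intervals listed at least 2 times, 12 kinesin genes were in both lists (background 15.9%), and 6 division kinesins were in both. By that rule 6 kinesin genes were in the Znhit1 KO list alone (background 7.71%) and 6 in the CTRL list alone (background 6.56%). With a window of 3 kb, 5 genes were in the CTRL list alone (Kif1a, Kif5c and Kif3c were added), where the background was 5.94%. There 6 transport and neuronal kinesins were in neither list (background 49.4%). With peaks of at least 300 bp, 1 gene was in the CTRL list alone (background 4.57%). Peaks of that width inside kinesin genes numbered 17 in the Znhit1 KO list and 13 in the CTRL list, without a background for that width. With the RefSeq start window, members without one counted as having no peak. There, 1 gene was in the CTRL list alone, 5 transport and neuronal kinesins were in both and 7 division kinesins in neither. Over the 17492 genes with a window, the shares were 3.51% in the CTRL list alone, 28.3% in both and 59.6% in neither. These shares leave out genes without a window, unlike the kinesin counts. Among division kinesins with a window, 6 of 14 were in neither. With peaks within 200 bp joined, the median log2 width ratio was -0.045, against 0.042, a shift well inside its quartiles. Of 69 values under the alternatives 57 stayed close to the reported ones. The roles of kinesins with several functions, a 500 bp window, equal numbers of the widest peaks and an overlap of 50% of both peaks moved no count by over 1.5 times. Causes of the other shifts were not tested. No replicate could be left out. No paired analysis was possible because there is 1 peak list per genotype.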
